A study of Mus musculus with 49 samples.

Results

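Cnr1 encodes the cannabinoid receptor CB1, and it was described here together with Cnrip1, whose product binds the intracellular tail of CB1, and 6 genes that make or break down its lipid ligands. These 8 genes were chosen by function from the 52636 genes of the count table, across 3 methods and both types of medium spiny neuron (MSN) of the nucleus accumbens (NAc), and all 8 were present. Dagla and Daglb encode the diacylglycerol lipases that make 2-arachidonoylglycerol, Mgll and Abhd6 encode hydrolases that break it down, Napepld encodes a phospholipase that makes anandamide, and Faah encodes the amidase that degrades anandamide.

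In the striatum, 2-arachidonoylglycerol is made in the dendrites of MSNs when Gq-coupled receptors and calcium are active, crosses the synapse backwards and acts on CB1 at presynaptic terminals, where CB1 couples to Gi/o proteins and reduces transmitter release. MSNs make CB1 themselves and carry it to their own terminals. Cnr1 RNA of MSNs encodes the receptor of their outputs, and the enzymes sit on both sides of the synapse. Receptor protein was not measured here.

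The 47 libraries used came from C57BL/6J mice, 1 mouse each, whose ages the labels do not give. For whole cell-FACS, cells carrying a cytoplasmic fluorophore driven through Drd1 (8 D1 libraries) or Drd2 (6 D2 libraries) were sorted from fresh, papain-treated tissue. For nuclear-FACS, GFP-labelled nuclei of Drd1-cre or Drd2-cre mice crossed to the Cre-dependent reporter Thy1-loxPSTOPloxP-EGFP-F (6 D1 and 5 D2) were sorted from frozen tissue. For RiboTag, ribosomes with HA-tagged Rpl22 were precipitated from fresh tissue of Drd1-cre or Drd2-cre mice crossed to Rpl22-loxPexon4loxP-exon4-HA (6 D1 and 6 D2 labelled male, 5 D1 and 5 D2 labelled female). The whole cell and nuclear libraries were labelled male. In such bulk samples, fewer cells of a type and less RNA per cell cannot be told apart.

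Whole cell libraries held 10476223 to 27965357 counts, nuclear libraries 3701255 to 68777008 and RiboTag libraries 24076888 to 45641342. Some libraries stood apart. Among RiboTag libraries labelled male, 4 of 6 D1 libraries (1 to 4) and 2 of 6 D2 libraries (2 and 6) had more counts on Xist than on the Y-linked genes Kdm5d, Eif2s3y, Uty and Ddx3y together, against their label. The 10 highest genes took over 40% of the counts in nuclear D1 libraries 1, 5 and 6 and in whole cell D2 library 2. They took 84.9 to 88.3% in the RiboTag libraries. Counts per kb on 1930 olfactory and vomeronasal receptor genes, which MSNs should not use, were taken as a background. At that density over every gene span, background would make up 13.2 to 51.3% of all counts in whole cell D1, 8.07 to 35.9% in whole cell D2, 0.572 to 22.1% in nuclear D1 and 32.1 to 51.7% in nuclear D2 libraries. The RiboTag estimate was at most 0.0618%. Cell type labels were checked on 5 D1 markers (Drd1, Pdyn, Tac1, Isl1 and Chrm4) and 5 D2 markers (Drd2, Adora2a, Penk, Gpr6 and Sp9). All 10 were called with their label in whole cell libraries. In each RiboTag set 9 were called, and the other, Isl1, was lower in D2 at -1.961 (adjusted p = 7.29e-08, labelled male) and -1.39 (adjusted p = 0.000130, labelled female) but had too low a mean count for a call. In nuclei, Drd1 and Drd2 differed with their labels, whereas Penk went against its own, with a log2 fold change of -2.41 (SE 0.46, adjusted p = 0.00923, edgeR). Of 4 tested D1 markers 1 was called lower in D2 nuclei, and of 4 tested D2 markers 1 was called higher and 1 lower. Without the FPKM filter described below, 4 of 5 D1 markers were called lower in D2 nuclei, but so were 3 of 5 D2 markers, and 0 were called higher. The nuclear cell type contrast was thus not borne out by most D2 markers.

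The genes lie on 6 autosomes of the mouse genome GRCm38 and are mostly intron, which matters because reads over introns were counted. Cnr1 (ENSMUSG00000044288) spans chr4:33924593-33948831 on the plus strand, 73.4% of it intron. Cnrip1 (ENSMUSG00000044629) spans chr11:17051586-17079371, Dagla (ENSMUSG00000035735) chr19:10245265-10304877, Daglb (ENSMUSG00000039206) chr5:143464584-143505942 and Mgll (ENSMUSG00000033174) chr6:88724412-88828360, of which 95.1% is intron. Abhd6 (ENSMUSG00000025277) spans chr14:8002902-8056763, Napepld (ENSMUSG00000044968) chr5:21662901-21701396 and Faah (ENSMUSG00000034171) chr4:115967145-116017926. Dagla, Napepld and Faah are on the minus strand and the others on the plus strand. Fragments were counted without strand and for every gene they touch, so that reads in the 2309 bases that Daglb shares with Rac1, and the 796 bases that Cnrip1 shares with Plek, count for both genes of a pair. Mgll contains 5 short non-coding gene models, Napepld a processed pseudogene, and 2496 bases of Dagla lie under an antisense gene.

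The upstream sequences of Cnr1, whose cell type difference is described first, and of Mgll, whose cell type difference is compared between methods, are shown from RefSeq (GRCm38.p6). RefSeq promoter entries were found for 7 of the 8 genes, all but Dagla. Each line gives the 250 bases before the most upstream start, 5′ to 3′, for Cnr1 chr4:33924014-33924263 and for Mgll chr6:88724162-88724411, both on the plus strand, with matched motifs in capitals:
Cnr1: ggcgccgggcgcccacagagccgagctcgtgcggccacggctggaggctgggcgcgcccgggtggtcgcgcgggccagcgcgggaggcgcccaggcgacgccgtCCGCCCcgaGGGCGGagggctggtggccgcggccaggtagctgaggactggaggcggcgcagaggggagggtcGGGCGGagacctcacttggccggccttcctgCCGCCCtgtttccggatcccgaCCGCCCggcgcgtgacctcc
Mgll: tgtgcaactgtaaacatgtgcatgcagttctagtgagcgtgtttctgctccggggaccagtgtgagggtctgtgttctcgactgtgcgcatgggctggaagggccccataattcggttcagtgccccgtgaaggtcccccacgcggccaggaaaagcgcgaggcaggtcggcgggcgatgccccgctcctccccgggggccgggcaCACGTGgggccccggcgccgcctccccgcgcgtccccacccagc
Searched on both strands were the GC box GGGCGG, the TATA box TATAAA, the partial CRE site TGACG and the E-box CACGTG. Cnr1 held 5 GC boxes and none of the other motifs, and Mgll held 1 E-box and none of the others. Among all 32851 promoter entries, 32.7% held a GC box, 12.4% a TATA box, 17.8% the partial CRE site and 6.02% the E-box in the same window. These matches describe letters and were not tested for use.

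Per unit of length, Cnr1 was the leading gene of the 8 in RiboTag and Napepld the last. Levels between genes were compared as FPKM over the gene span, scaled to the counts on the genes tested in that library set. In RiboTag libraries Cnr1 stood above Dagla, the second gene, in 22 of 22 libraries. The Cnr1 level was 0.289 ± 0.0629 FPKM (SD, n = 6) in D1 and 0.209 ± 0.0505 (n = 6) in D2 libraries labelled male, against 0.155 ± 0.0311 and 0.140 ± 0.0134 for Dagla. Behind them Mgll, Cnrip1, Daglb and Abhd6 lay between 0.0660 and 0.0935 FPKM in these groups, and most neighbours in that order differed by less than their SD. Faah (0.0321 ± 0.00662 in D1) and Napepld (0.00900 ± 0.00276) followed, each step seen in every library. Since 10 genes hold most of the counts of each RiboTag library, these levels can be ordered among themselves but not set against the sorted libraries.

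In sorted cells and nuclei, Cnr1 led per unit of gene span in D1- but not in D2-MSNs. In whole cell D1 libraries Cnr1 came first with 2.56 ± 0.811 FPKM (SD, n = 8), above Cnrip1 (1.68 ± 0.142) in 7 of 8 libraries. In whole cell D2 libraries Cnr1 was sixth, at 1.08 ± 0.220 FPKM (n = 6), behind Mgll (1.63 ± 0.447), Dagla (1.47 ± 0.457), Abhd6, Daglb and Cnrip1, and no pair of neighbours in that order differed by more than its SD. In nuclear D1 libraries Cnr1 was first at 3.88 ± 1.44 FPKM (n = 6), above Dagla (2.13 ± 0.250) in all 6. In nuclear D2 libraries Dagla (3.35 ± 0.519, n = 5) and Cnr1 (2.89 ± 1.13) were within their SD. Napepld was last in every group.

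**Figure D1:**
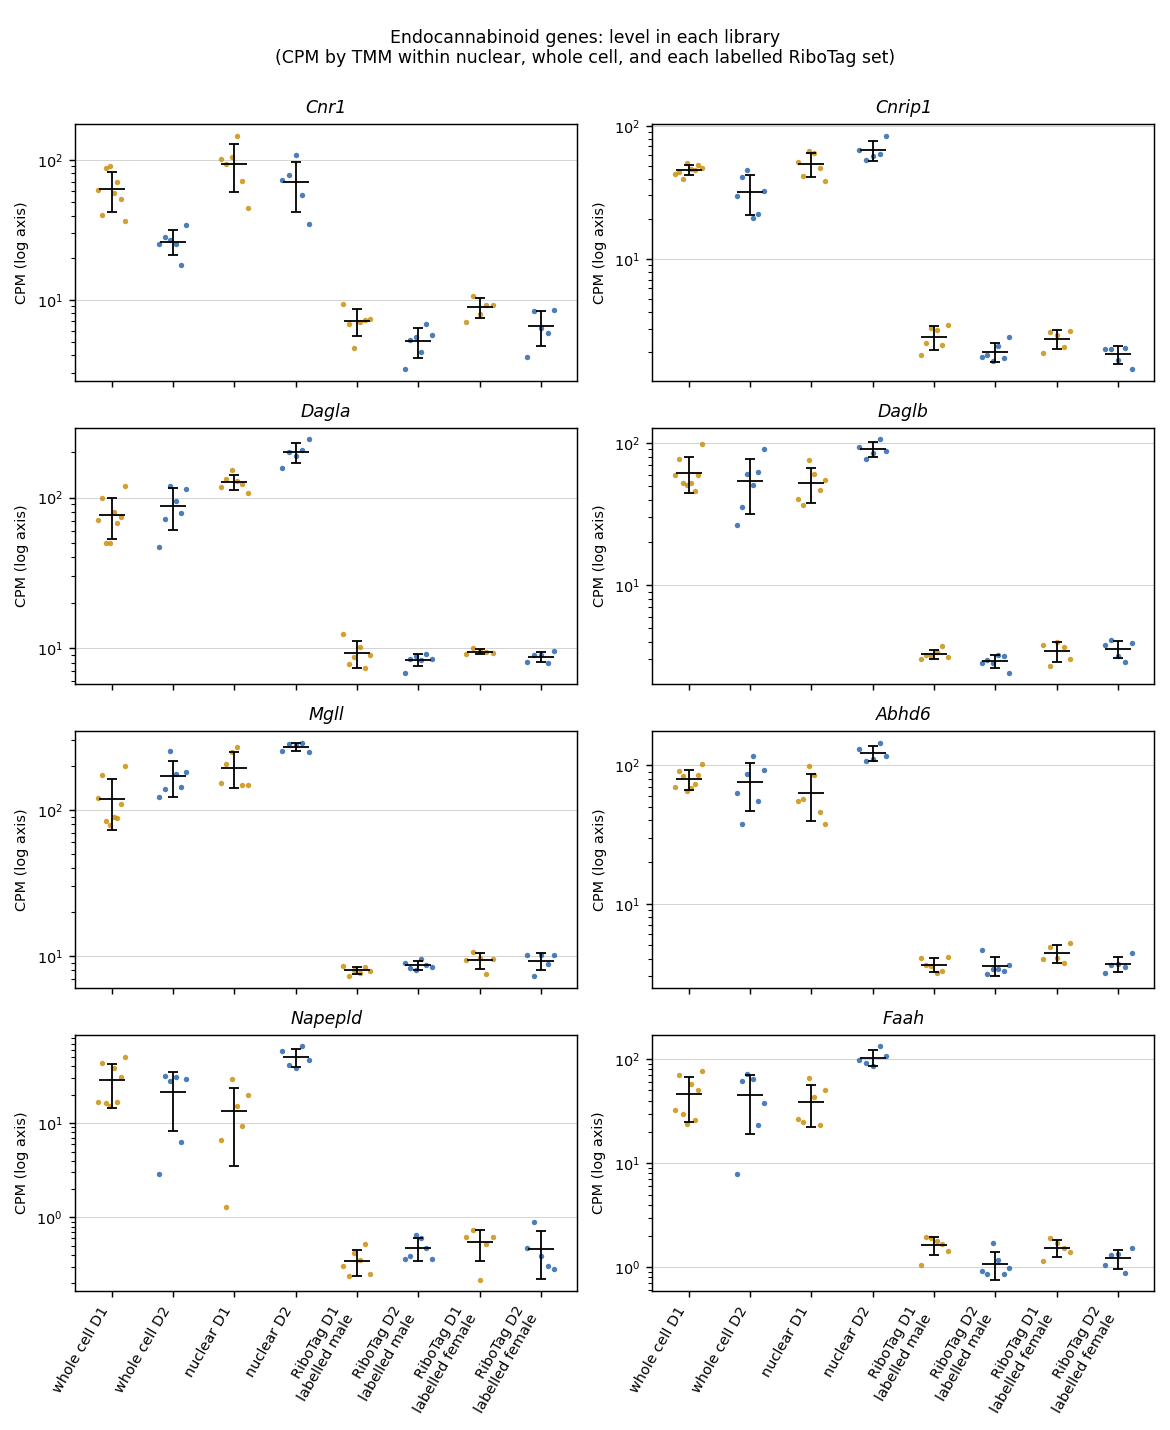
Level of each of the 8 genes in each library, in CPM on a log axis, for the 8 groups, with the mean and SD in black. CPM are scaled within each library set, so that D1 (ochre) and D2 (blue) of 1 set compare but sets do not; the 6 whole cell D2 points of Cnr1 lie below the 8 D1 points.

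The comparison of D2- with D1-MSNs asked which cell type holds more RNA of each gene. Log2 fold changes are D2 over D1, so that those above 0 mean more RNA in D2-MSNs, and a gene was called when its adjusted p was at most 0.05, its log2 fold change exceeded 0.38 in size and its mean count lay above the lowest 25%. Nuclear calls also needed an SE below the highest 25%. With the filters on low values, 5 of the 8 genes were tested in whole cell, 4 in nuclear, 3 in RiboTag labelled male and 2 in RiboTag labelled female libraries. The rest, with too few reads per kb for these filters, were followed in fits without the FPKM filter. Where D1 and D2 libraries are said not to overlap, the share of all genes without overlap was not counted.

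Cnr1 was the member that differed most clearly, with less RNA in D2-MSNs. In whole cell D1 libraries the Cnr1 level ran from 36.3 to 90.6 CPM (counts scaled to the genes tested, as for FPKM but not per length) with a median of 59.7, and in D2 libraries from 17.7 to 34.1 with a median of 25.9. Every D2 library was below every D1 library. The mean was 61.9 ± 19.7 (SD, n = 8) in D1 and 26.1 ± 5.32 (n = 6) in D2, a log2 fold change of -1.25 (SE 0.21, adjusted p = 0.00630, edgeR's quasi-likelihood test). It was the 1 member of 5 tested that was called in whole cells, where 0.984% of all 16355 tested genes were and 0.654% were called lower. Background would give 5.62 to 51.7% of the Cnr1 count in D1 and 9.69 to 47.9% in D2 libraries, and with it subtracted the log2 fold change was -1.58 (adjusted p = 0.00664, with 1.03% of genes called). All 14 fits that left out 1 library kept the call, and without D2 library 2 it was -1.27 (adjusted p = 0.0114, with 1.73% of genes called). The call was lost without the FPKM filter, at -1.14 (adjusted p = 0.163), when 33408 genes were tested and 0.102% called.

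RiboTag gave the same direction for Cnr1 with a smaller estimate. Libraries labelled male ran from 4.55 to 9.33 CPM with a median of 7.07 in D1 and from 3.20 to 6.76 with a median of 5.31 in D2. The groups overlapped, with 2 of 6 D2 libraries below all D1 libraries. The log2 fold change was -0.46 (SE 0.14, adjusted p = 0.0451), the 1 call among 3 members tested, against 2.56% of 6784 genes, 1.62% of them lower. Of the 12 fits that left out 1 library, 2 kept the call, with log2 fold changes from -0.57 to -0.35. Without the 6 libraries that went against their sex label it was -0.55 (adjusted p = 0.114), with 2.85% of genes called.

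In RiboTag libraries labelled female, Cnr1 measured 6.96, 10.7, 7.94, 9.25 and 9.24 CPM in D1 and 3.93, 8.27, 6.24, 5.76 and 8.39 CPM in D2. Of the D2 libraries, 3 of 5 were below all D1 libraries and the others lay within their range. The log2 fold change was -0.45 (SE 0.15) and did not pass (adjusted p = 0.108), beside 1.90% of 7057 genes called. Averaged over all 22 RiboTag libraries in 1 fit, a choice made after seeing the data that does not use the sex label to pool, Cnr1 was lower in D2 by a log2 fold change of -0.45 (SE 0.12, adjusted p = 0.00810), with 2.08% of 7172 genes called. The estimates of whole cell and RiboTag libraries labelled male differed by 0.76 on the log2 scale (95% interval -0.08 to 1.60), which did not pass (adjusted p = 1.000, with 0.0870% of genes called).

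Cnrip1, the partner of CB1, had estimates of the same sign outside the nucleus. In whole cells it ran from 40.04 to 52.5 CPM (median 46.6) in D1 and from 20.3 to 46.7 (median 31.0) in D2, with 4 of 6 D2 libraries below every D1 library. Its log2 fold change was -0.54 (SE 0.18) and did not pass (adjusted p = 0.143). In RiboTag libraries labelled male it was -0.38 (SE 0.13, adjusted p = 0.0808), from a range of 1.90 to 3.17 CPM in D1 and 1.70 to 2.58 CPM in D2. In those labelled female the FPKM filter left it out, and without that filter it was -0.38 (SE 0.14, adjusted p = 0.186). Over all 22 RiboTag libraries Cnrip1 was called, at -0.39 (SE 0.10, adjusted p = 0.00714).

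Interneurons of the NAc also carry CB1, so their markers were set beside these results. Of 7 interneuron markers (Pvalb, Sst, Npy, Chat, Slc5a7, Cck and Vip), 3 were tested in each RiboTag set, and Sst and Npy were called lower in D2 in both. Sst had a log2 fold change of -0.95 (SE 0.12) in libraries labelled male and -1.31 (SE 0.25) in those labelled female. Cck, which marks a CB1-rich class, was at 3.10 ± 1.16 CPM in D1 and 0.781 ± 0.453 in D2 libraries labelled male. The summed level of the 7 ranged from 14.03 to 17.7 CPM in D1 and from 8.48 to 13.8 in D2 libraries labelled male, without overlap. Those labelled female ranged from 11.8 to 25.9 and from 5.29 to 16.7. In whole cells the sums overlapped, from 36.9 to 182 CPM in D1 and from 28.0 to 126 in D2, and neither of 2 tested markers was called. In nuclei 3 were tested and Sst was called lower in D2 (-1.91, SE 0.37), while the sums ran from 93.1 to 199 CPM in D1 and from 163 to 262 in D2. The cholinergic markers Chat and Slc5a7, not tested in RiboTag, lay the other way there. Chat was at 0.343 ± 0.134 CPM in D1 and 1.79 ± 0.229 in D2 libraries labelled male, and at 0.458 ± 0.209 and 1.77 ± 0.640 in those labelled female. Slc5a7 was at 0.280 ± 0.156 and 2.06 ± 0.232 CPM in libraries labelled male, and at 0.381 ± 0.163 and 1.85 ± 0.953 in those labelled female. No interneuron marker was at 0 throughout a group. The part of these cells in the Cnr1 difference was not tested.

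The 2-arachidonoylglycerol enzymes did not share the direction of Cnr1 in whole cells. Mgll, which ends most of the signal in brain, ran from 79.1 to 199 CPM (median 99.4) in D1 and from 123 to 252 CPM (median 161) in D2 libraries. The ranges overlapped, and the log2 fold change of 0.53 (SE 0.22) did not pass (adjusted p = 0.247). In 1 fit of all libraries labelled male it was 0.73 (adjusted p = 0.00219) and was called, where 2.41% of genes were called. Dagla, the main synthetic enzyme of adult brain, was at 0.20 (SE 0.22, adjusted p = 0.785) and Daglb at -0.19 (SE 0.23, adjusted p = 0.837). Abhd6 was tested only without the FPKM filter, at 0.09 (SE 0.20).

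On ribosomes the estimates for these enzymes were small, and none passed. Without the FPKM filter, when 3.12% of genes were called in libraries labelled male and 1.83% in those labelled female, Mgll was at 0.12 (SE 0.06) in RiboTag libraries labelled male and 0.01 (SE 0.10) in those labelled female, with 95% intervals of -0.01 to 0.24 and -0.19 to 0.20. Dagla, tested in both main fits, was at -0.15 (SE 0.10) and -0.12 (SE 0.07). Daglb was at -0.17 (SE 0.09) and 0.06 (SE 0.13), and Abhd6 at -0.03 (SE 0.10) and -0.24 (SE 0.11).

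Of the anandamide genes, Napepld lay closest to background in sorted cells, and both genes were scarce on ribosomes. Background would account for a median of 57.2% of the Napepld count in whole cell D1 and 57.6% in D2 libraries, and of 44.3 and 35.1% of the Faah count. Neither was tested in any main comparison of cell types. Napepld had 7 to 17 counts in a RiboTag D1 library labelled male, and its counts were too low for any RiboTag fit but that without filters. Faah was lower in RiboTag D2 libraries labelled male without the FPKM filter, by -0.56 (SE 0.18, adjusted p = 0.0555), with 4 of 6 D2 libraries below every D1 library. It was at -0.32 (SE 0.18, adjusted p = 0.437) in those labelled female.

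**Figure D2:**
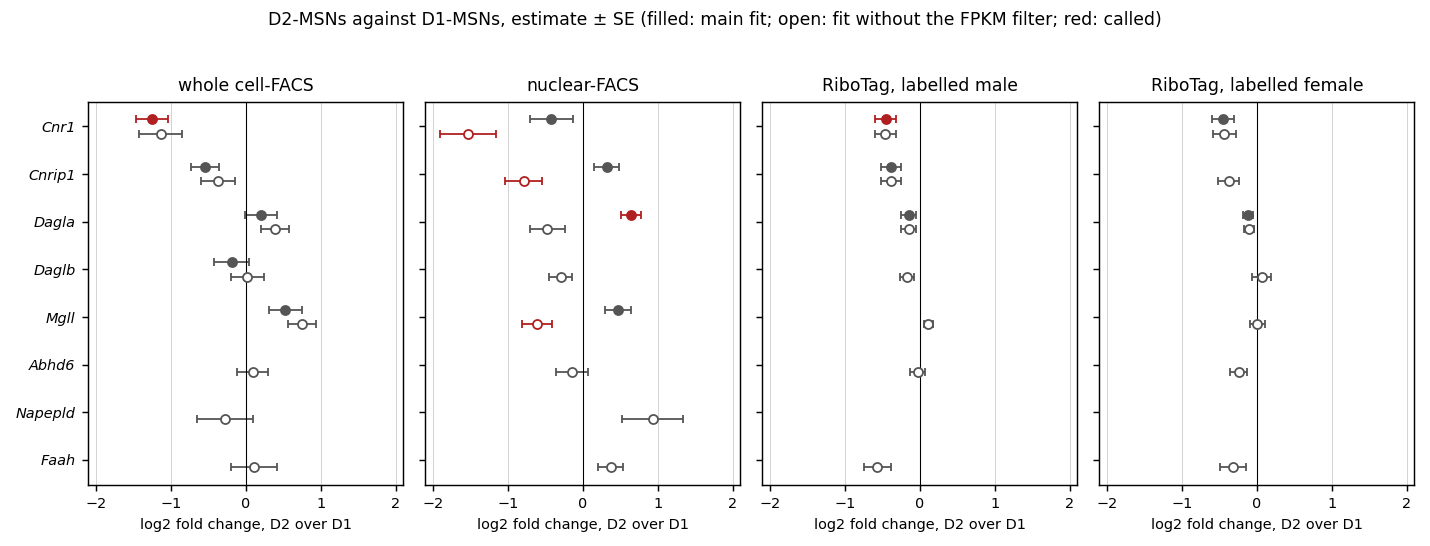
Log2 fold change of D2 over D1 for each gene with its SE, in whole cell, nuclear and both RiboTag sets; filled points come from the filtered fit, open points from the fit without the FPKM filter, and red marks a call. Cnr1 lies left of 0 in all 4 sets, whereas the nuclear points of Cnrip1, Dagla and Mgll change side between the fits.

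In nuclei the direction of the members depended on which genes set the scale. With the filters, 9228 genes were tested, 12.2% were called (3.18% higher), and Dagla was the 1 of 4 tested members called, higher in D2. It ran from 108 to 152 CPM (median 126) in D1 and measured 158, 201, 189, 206 and 244 CPM in D2, without overlap, and the log2 fold change was 0.65 (SE 0.13, adjusted p = 0.0101). Mgll was at 0.47 (SE 0.17, adjusted p = 0.0755), Cnrip1 at 0.32 (SE 0.17, adjusted p = 0.210) and Cnr1 at -0.42 (SE 0.29, adjusted p = 0.327).

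Without the FPKM filter, 30791 genes set the scale, 23.7% were called, and all 4 estimates moved down. Dagla was then at -0.47 (adjusted p = 0.119), while Cnr1 (-1.53, adjusted p = 0.0116), Cnrip1 (-0.79, adjusted p = 0.0329) and Mgll (-0.62, adjusted p = 0.0382) were called lower in D2. In the fit of all libraries labelled male, Dagla was called lower, at -0.40 (adjusted p = 0.0488), where 60.0% of genes were called. Only Cnr1 of the 4 kept its sign in these 3 fits, and with library totals in place of TMM it was at 0.02 (adjusted p = 0.966). Dagla (1.13), Mgll (0.91) and Cnrip1 (0.80) were then called higher, where 21.9% of genes were called. Without nuclear D1 libraries 1, 5 and 6, 5.58% of genes were called and Dagla was at 0.40 (adjusted p = 0.0937), Mgll at 0.04 and Cnr1 at -0.80 (adjusted p = 0.0893). The background estimate moved with cell type here, and for Cnr1 it was 0.491 to 14.1% of the count in D1 and 13.7 to 45.8% in D2. Its part in the nuclear result was not tested beyond its subtraction, after which 14.9% of genes were called, with Dagla at 0.69 (adjusted p = 0.0126) and Cnr1 at -0.48 (adjusted p = 0.333).

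The other 4 genes did not pass the nuclear FPKM filter. On the scale of the filtered genes each was higher in all 5 D2 than in all 6 D1 nuclear libraries, as a description with no test. The share of all genes that separate in this way was not counted, so this is no result particular to the 4. Napepld was at 13.6 ± 10.1 CPM in D1 and 50.2 ± 11.2 in D2, Faah at 39.1 ± 17.0 and 103 ± 18.1, Daglb at 52.5 ± 14.4 and 90.2 ± 10.8, and Abhd6 at 63.4 ± 23.9 and 123 ± 15.5. In the fit without the FPKM filter none of the 4 was called, and the signs parted. Napepld was at 0.93 (SE 0.41, adjusted p = 0.0929) and Faah at 0.37 (SE 0.17, adjusted p = 0.0984), whereas Daglb was at -0.30 (SE 0.16, adjusted p = 0.147) and Abhd6 at -0.14 (SE 0.21, adjusted p = 0.583). Background estimates were again lower in D1, with medians of 48.8 and 61.1% of the Napepld count and 15.7 and 36.1% of the Faah count in D1 and D2. The summed level of 5 endothelial markers also separated in nuclei, from 30.2 to 311 CPM in D1 and from 360 to 679 in D2. That of 5 microglial markers ran from 174 to 397 and from 400 to 579 CPM. Astrocyte and oligodendrocyte sums overlapped. The part of such cells in these levels was not tested.

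A share within the 8 genes needs no scale between libraries. Each gene's count per kb of gene span was divided by the sum over the 8, as a description with no test. The size of a share thus rests on the span as divisor. The 8 shares add up to the whole, so that a lower share of 1 gene raises the others. Cnr1 made up 23.5 ± 9.10% in whole cell D1 and 11.8 ± 2.94% in D2, 28.7 ± 6.32% in nuclear D1 and 15.3 ± 5.95% in nuclear D2. In RiboTag it was 35.7 ± 5.12 and 30.7 ± 5.27% in libraries labelled male, and 39.8 ± 3.37 and 34.6 ± 6.14% in those labelled female. The Mgll share in whole cells was 7.24 to 13.4% in D1 and 15.1 to 19.5% in D2, without overlap. In RiboTag libraries labelled male it was 8.92 to 10.8% in D1 and 11.1 to 14.8% in D2, again without overlap. In those labelled female the ranges overlapped, with means of 9.93 and 11.9%, while the Mgll level itself was 9.39 ± 1.17 CPM in D1 and 9.32 ± 1.25 in D2. In nuclei it was 14.04 ± 1.55 and 13.7 ± 0.828%. Dagla's share was 11.2 ± 2.20% in whole cell D1 and 15.4 ± 1.82% in D2. The mean Cnr1 share of D2 was thus below that of D1 in each set. The mean Mgll share was higher in D2 in whole cells and RiboTag.

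**Figure D3:**
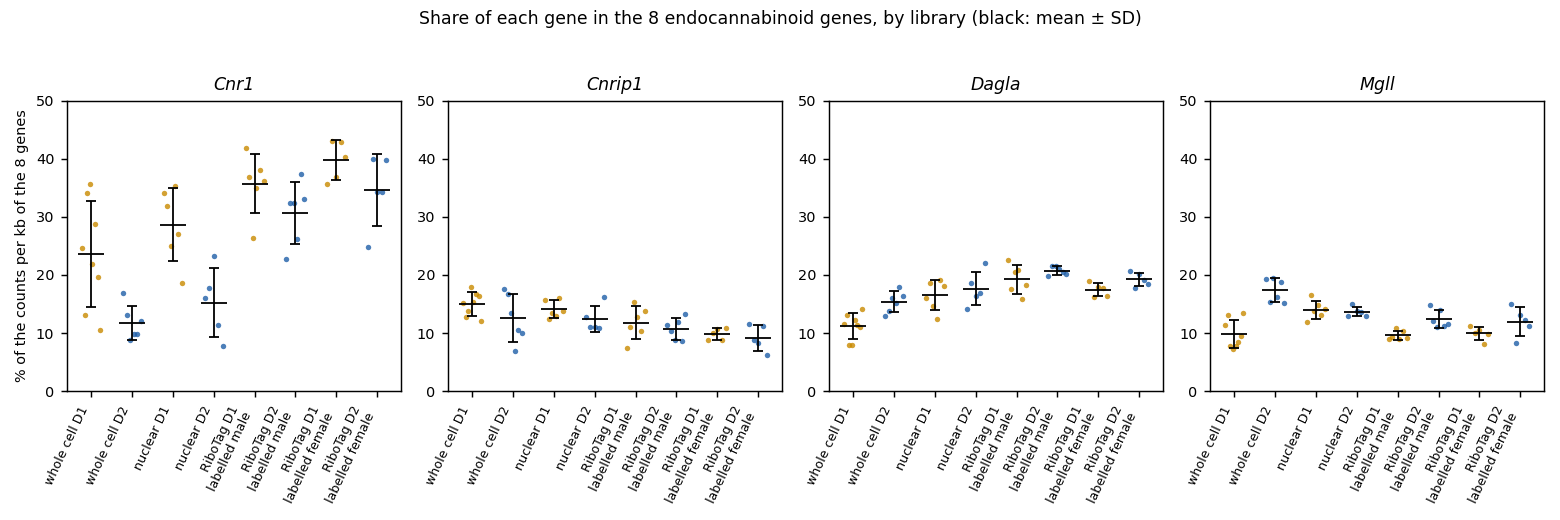
Share of Cnr1, Cnrip1, Dagla and Mgll in the summed counts per kb of the 8 genes, in percent, for each library of the 8 groups, with the mean and SD in black. The Cnr1 share is lower in D2 on average in every set, and the mean Mgll share of whole cells is 9.84% in D1 and 17.4% in D2.

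The cell type difference was compared between methods, and 2 of 8 members, Mgll and Dagla, were called between nuclear and whole cell libraries. That share is near the 21.9% of all genes called. In the fit of all libraries labelled male, where 21.9% of 29902 genes were called and 15.8% were called lower, the D2 minus D1 difference of Mgll was lower in nuclear than in whole cell libraries by -1.30 (SE 0.22, adjusted p = 0.000173), and that of Dagla by -0.78 (SE 0.24, adjusted p = 0.0205). The median over all genes was 0.33. The Mgll difference was -1.17 with background subtracted (adjusted p = 0.00324) and -1.46 without the libraries in doubt (adjusted p = 0.00770), whereas that of Dagla did not pass in either. With library totals in place of TMM both changed sign, Mgll to 0.26 (adjusted p = 0.563) and Dagla to 0.88 (adjusted p = 0.0310), so their direction rests on the scale. Between nuclei and RiboTag 1 of 8 members was called, beside 14.6% of all genes called and 12.9% lower. This was Mgll, at -0.69 (SE 0.23, adjusted p = 0.0367), which did not pass with background subtracted (-0.36, adjusted p = 0.530) or without the libraries in doubt (-0.90, adjusted p = 0.386). These contrasts share their libraries and are not independent.

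Methods were compared for the RNA each retrieves, with cell types averaged. Nuclear over whole cell, 4 of 8 members were called higher, beside 19.2% of genes called, 6.78% higher, and a median of all genes of -0.13. They were Dagla (0.86, SE 0.12, adjusted p = 1.08e-06), Cnr1 (0.83, SE 0.22, adjusted p = 0.00405), Mgll (0.57, SE 0.11, adjusted p = 0.000121) and Cnrip1 (0.42, SE 0.15, adjusted p = 0.0416), and none of these calls held with library totals in place of TMM. Without the libraries in doubt Cnrip1 was not called (0.36, adjusted p = 0.230).

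RiboTag over whole cell, the median of all genes was -1.91 and 86.3% were called, 23.7% higher and 62.7% lower, so the scale decides the sign, and values are given against that median. It is taken over genes of every type, and the paper reports that RiboTag is biased towards protein-coding genes. The 8 members are protein-coding, and all lay above the median. A median over protein-coding genes alone was not computed. Cnr1 was 3.39 above the median, Dagla 3.03, Mgll 2.15, Cnrip1 2.11, Daglb 2.00, Abhd6 1.78, Faah 1.24 and Napepld 0.43. Relative to 0, Cnr1 (1.48, SE 0.21) and Dagla (1.12, SE 0.12) were called higher and Napepld (-1.48, SE 0.27) and Faah (-0.67, SE 0.18) lower, and with library totals all 8 were called lower. Nuclear over RiboTag, with a median of 2.19 and 89.3% called, 63.5% higher and 25.7% lower, all 8 members lay below the median. Cnr1 lay 2.84 and Dagla 2.46 below it, the lowest members, and Faah (1.13 below) and Napepld (0.75 below) were the highest. Relative to 0, Cnr1 (-0.65, SE 0.23, adjusted p = 0.00778) was called lower, and Napepld (1.45, SE 0.28) and Faah (1.06, SE 0.19) higher. The Cnr1 call was lost with background subtracted (-0.32, adjusted p = 0.192) and without the libraries in doubt (-0.62, adjusted p = 0.0823). With library totals all 8 were called higher, Cnr1 at 2.46, so that the sign of Cnr1 rests on the scale.

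**Figure D4:**
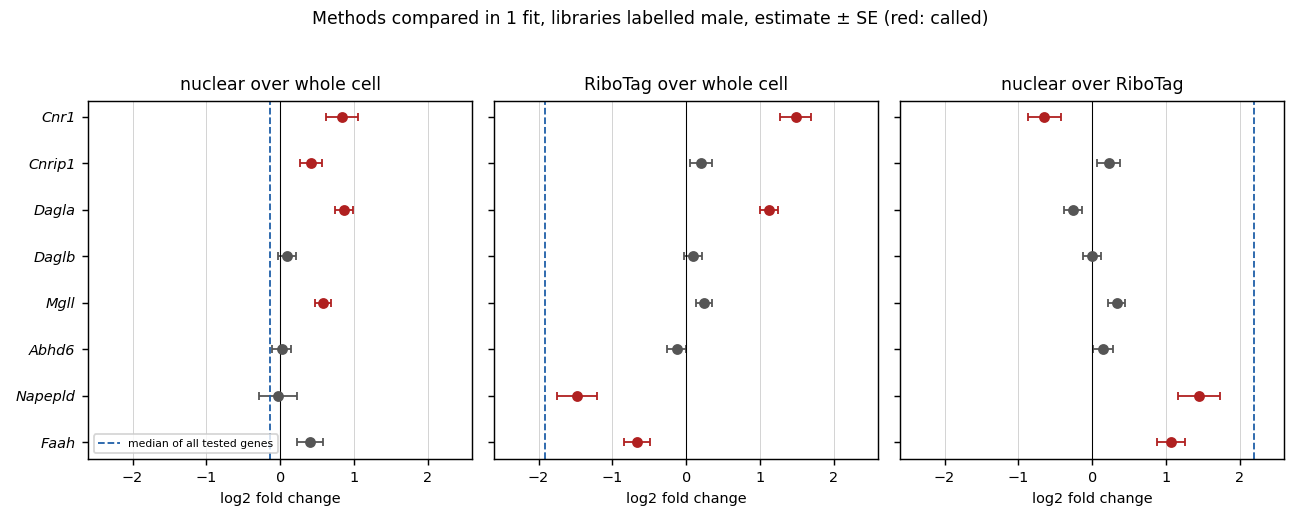
Log2 fold change between methods for each gene with its SE, from 1 fit of libraries labelled male, with red for a call and a dashed line at the median of all tested genes. The genes lie within 1.5 of 0, but the dashed lines at -0.13, -1.91 and 2.19 show how far the rest of the genes lie from them.

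Between RiboTag libraries labelled female and male, none of the 3 members tested passed. Cnr1 was at 0.23 for female minus male (SE 0.12, adjusted p = 0.614), Cnrip1 at -0.18 (SE 0.10, adjusted p = 0.668) and Dagla at -0.08 (SE 0.07, adjusted p = 0.798), where 0.0837% of 7172 genes were called. Without the 6 libraries that went against their label, Cnr1 was at 0.22 (adjusted p = 0.752). The cell type difference of Cnr1 differed by 0.01 between labels (95% interval -0.46 to 0.47). For such differences edgeR called 0 genes, with 511 at an unadjusted p below 0.05, and DESeq2 called 2. Because 6 labels disagree with the sex-linked genes, these values compare labels.

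The background part of each count is set out by gene in the plot of background estimates. Napepld had the highest median of the 8 genes in each sorted group, from 48.8% in nuclear D1 to 61.1% in nuclear D2. Cnr1 had the lowest median in whole cell D1 (15.1%) and nuclear D1 (2.27%), but not in whole cell D2 (29.9%) or nuclear D2 (31.0%). In RiboTag, no gene but Napepld and Faah had a background above 1% of its count in any library.

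**Figure D5:**
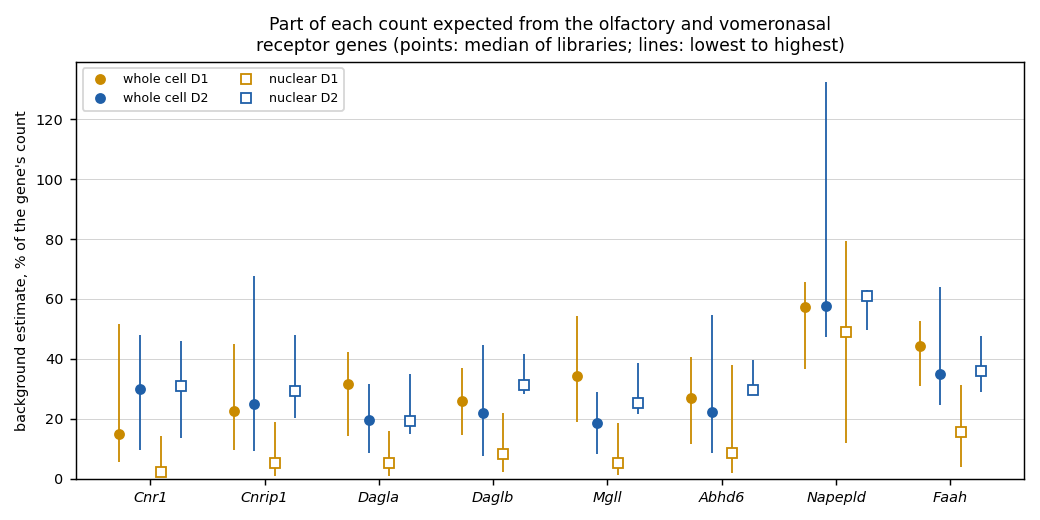
Background estimate as a percentage of each gene's count in whole cell (filled circles) and nuclear (open squares) libraries of D1 (ochre) and D2 (blue), with the median over libraries as the point and the lowest to highest library as the line. Napepld and Faah lie highest, and nuclear D1 libraries lie below nuclear D2 libraries in every median.

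Around the 8 genes, 38 further genes of the pathway were followed: 6 other lipid receptors, 6 synthesis genes, 4 breakdown genes, 3 carriers, 8 genes of the Gq drive and 11 partners or effectors of CB1. In whole cells 1 of 23 tested was called (0.984% of all genes), in nuclei 1 of 17 (12.2% of all genes), and in each RiboTag set 1 of 17 (2.56% of all genes in libraries labelled male and 1.90% in those labelled female). The median log2 fold change of the tested genes was 0.05 in whole cells (all genes -0.09), -0.06 in nuclei (0.03), 0.01 in RiboTag labelled male (0.00) and 0.00 in labelled female. No receptor, synthesis, breakdown, carrier or Gq gene was called in any of these 4 main fits, but few were tested. In nuclei and each RiboTag set these were 0 of 6 receptors, 1 of 6 synthesis genes and 1 of 4 breakdown genes. Without the FPKM filter, nuclei called 6 of 8 Gq genes, 3 of 3 carriers, 2 of 6 synthesis genes and 1 of 4 breakdown genes lower in D2. They called 1 of 6 receptors higher, where 23.7% of all genes were called. Whole cell and RiboTag fits without that filter called no gene of these lists.

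The called partner was Gnai1, a Gi alpha subunit through which CB1 can inhibit adenylyl cyclase, and it was called lower in D2 in whole cells and both RiboTag sets. In RiboTag libraries labelled male it ran from 17.2 to 18.6 CPM in D1 and from 13.3 to 14.04 in D2, without overlap (log2 fold change -0.40, SE 0.05, adjusted p = 1.13e-06). In those labelled female it was 18.2 to 20.4 against 12.7 to 14.6 CPM (-0.51, SE 0.06, adjusted p = 4.11e-06). In whole cells it was 164 to 262 against 90.4 to 154 CPM (-0.79, SE 0.15, adjusted p = 0.0170), a call that 6 of 14 fits leaving out 1 library lost. The whole cell call was also lost with no filter (-0.62, adjusted p = 0.326), without the FPKM filter (-0.60, adjusted p = 0.665) and with exon lengths (-0.61, adjusted p = 0.938), and the call labelled male was lost in the fit of all libraries labelled male (-0.39, adjusted p = 1.000). In nuclei the filters left it out. On the scale of the filtered genes its mean there was 118 ± 22.5 CPM (n = 6) in D1 and 145 ± 19.2 (n = 5) in D2, whereas without the FPKM filter it was lower in D2 at -0.82 (adjusted p = 0.00690), so that its nuclear direction also depended on the scale. The other was Cacna1a, the P/Q-type calcium channel that CB1 restrains, called higher in nuclear D2 (0.58, SE 0.16, adjusted p = 0.0251). Like Dagla, it changed sign without the FPKM filter (-0.53, adjusted p = 0.0959). In the fit of all libraries labelled male it was called lower (-0.47, adjusted p = 0.0231), where 60.0% of genes were called. The call was lost with the replicate block (0.55, adjusted p = 0.152) and without nuclear D1 libraries 1, 5 and 6 (0.25, adjusted p = 0.240).

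Across all 47 libraries, the genes whose log2 CPM followed Cnr1 most closely among 23115 were Acsl3 (Pearson's r = 0.895), Ccp110 (0.872), Ccar1 (0.861), Eps15 (0.860) and the antisense gene Gm37459 (0.856). Within groups, where method and cell type are removed, the same genes had r of 0.703, 0.605, 0.779, 0.495 and 0.478. Among the members, Dagla (0.607) and Cnrip1 (0.400) had the highest r with Cnr1 and Napepld the lowest (-0.601), and within groups Abhd6 (0.360) and Cnrip1 (0.359) were highest. These values are descriptions over libraries that share method and depth.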

How the data were processed

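RNA was sequenced from D1- and D2-MSNs of mouse NAc after whole cell-FACS, nuclear-FACS or RiboTag. The authors aligned paired reads with HISAT2 2.0.5 to GRCm38 and deposited raw counts per gene from featureCounts, taken over whole gene bodies without strand, with a fragment counted for each gene it touched and multimapped reads left out. From these counts, genes above 1 FPM (library-scaled fragments) in at least 2 libraries were kept, with an FPKM over the gene span of at least 1 in 1 library and at most 50000 in all (RiboTag: at least 0.1 in 2). Fits of all libraries labelled male used the first filter alone. The main test was edgeR's quasi-likelihood test (4.0.16, R 4.3.3) with TMM and Benjamini-Hochberg adjustment over all genes tested. Calls needed an adjusted p of at most 0.05 and a log2 fold change over 0.38 in size; within a method also a mean above the lowest 25%, and in nuclei an SE below the highest 25%. SE was the log2 fold change divided by the root of F, and intervals were 1.96 SE either side (95%).

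Alternatives were DESeq2 (1.42.0), its size factors, library totals, other filters, exon lengths, background subtraction, a replicate block, leaving out single libraries, and leaving out libraries in doubt, the last chosen after seeing the data. The block kept only libraries whose number both cell types share. Each library was left out within a method; between methods only each of the 5 nuclear D2 libraries was, and between sex labels each of the 10 labelled female. Scripts were tested on simulated data with 200 genes changed by 1.5 on the log2 scale. At an adjusted p of at most 0.05 (edgeR), 41.5% of them were recovered in whole cell, 52% in nuclear and 100% in either RiboTag set. Smaller differences in sorted libraries can thus go uncalled. Annotation was GENCODE M21, which matched 99.72% of genes. The 2 lanes of whole cell D2 library 3 differed by no more than sampling noise (chi-square per degree of freedom 1.04) and were summed as 1 sample, whereas a column named as a second entry of whole cell D1 library 1 differed from it by 6.26, within the 5.53 to 130 of other whole cell D1 pairs. It may be another library and entered only alternatives, where whole cell Cnr1 was at -1.23 with it as a library and -1.24 with it summed. A sample record whose labels conflict was assigned to no group. Every count column was mapped, so its counts may be among the columns described here. Total counts, from 3701255 to 68777008, set the precision, so that nuclear libraries of low total weigh least. The named genes were the 8 members, pathway genes called in a cell type comparison and the 5 genes most like Cnr1. Members and lists were chosen with earlier results of these data known.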

Additional observations from a re-analysis of the deposited data

Results flagged for a closer look

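Of 64 groups of 4 to 10 libraries examined, 2 held a library far from the others by Dixon's 95% criterion, where chance gives about 1 in 20, or 3.2. Both concern RiboTag D2 library 1 labelled male. Its Dagla level was the lowest of its group at 6.86 CPM (next 8.36), and its Abhd6 level the highest at 4.62 CPM (next 3.63). The differences between cell types themselves differed between methods for Dagla, by -0.78 between nuclear and whole cell libraries, and for Mgll, by -1.30 between nuclear and whole cell and by -0.69 between nuclear and RiboTag libraries (edgeR's test of the difference). Of all genes, 21.9% were called for nuclear against whole cell and 14.6% for nuclear against RiboTag. All 3 member differences changed sign with library totals in place of TMM.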

How the results depend on the processing

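Counts of members called depended on the processing, and the share of all genes called under a setting stands in brackets. In nuclei, against 1 of 4 tested (12.2%), they were 2 with DESeq2 (16.3%) or no filter (14.1%), 3 with library totals (21.9%), no FPKM filter (23.7%) or exon lengths (26.6%), 4 in the fit of all libraries labelled male (60.0%), and 0 without the libraries in doubt (5.58%) or with the replicate block (0.00%); leaving out 1 library gave 1 to 2. In whole cells, against 1 (0.984%), they were 0 with no filter (0.0687%), no FPKM filter (0.102%) or exon lengths (0.0825%), 2 in the fit of all libraries labelled male (2.41%), and 1 to 1 on leaving out 1 library. In RiboTag labelled male, against 1 (2.56%), they were 0 with DESeq2 (2.52%), no FPKM filter (3.12%), exon lengths (3.12%), without the libraries in doubt (2.85%) or in the fit of all libraries labelled male (0.427%), 2 with no filter (2.23%) or over all RiboTag libraries (2.08%), and 0 to 1 on leaving out 1. In those labelled female, against 0 (1.90%), they were 1 with library totals (3.36%), no filter (1.60%) or the replicate block (1.68%), 2 over all RiboTag libraries (2.08%), and 0 to 1 on leaving out 1.

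Between methods only the 5 nuclear D2 libraries were left out, 1 at a time, so the comparison of RiboTag with whole cell libraries (4 to 4) was not checked for the libraries it compares. Library totals gave 0 for nuclear over whole cell (24.1% of genes; 3 to 4 on leaving out 1), 8 for RiboTag over whole cell (98.6%) and 8 for nuclear over RiboTag (95.4%; 3 to 3), where adjusted p alone gave 5 (90.2%), and DESeq2 (89.1%) and its size factors (88.8%) 6. For the cell type difference between nuclear and whole cell, library totals gave 7 (58.9%), background subtraction (17.0%) and leaving out the libraries in doubt (3.81%) 1, and leaving out 1 nuclear D2 library 1 to 2; between nuclear and RiboTag, library totals gave 2 (10.9%), no filter (6.92%), background subtraction (10.5%) and leaving out the libraries in doubt (0.0189%) 0, and leaving out 1 nuclear D2 library 0 to 1. The other 3 comparisons had 0 in the alternatives that were run.

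Signs changed as follows, and the cause was not tested. In nuclei Cnrip1 was at -0.78 with no filter, -0.79 with no FPKM filter, -0.74 with exon lengths and -0.73 in the fit of all libraries labelled male, Dagla at -0.46, -0.47, -0.43 and -0.40, and Mgll at -0.62, -0.57 and -0.56 in the last 3. With library totals, RiboTag over whole cell was -1.95 for Cnr1, -3.27 for Cnrip1, -2.38 for Dagla, -3.38 for Daglb and -3.28 for Mgll, and nuclear over RiboTag was 2.46 for Cnr1, 2.83 for Dagla and 3.13 for Daglb. With library totals the cell type difference between nuclear and whole cell was 1.25 for Cnr1, 1.31 for Cnrip1, 0.88 for Dagla, 1.41 for Daglb, 0.26 for Mgll and 1.31 for Abhd6, and between nuclear and RiboTag 1.18 for Daglb and 0.54 for Mgll.

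Replicate numbers did not pair the libraries: deviations of same-numbered libraries correlated from -0.330 to 0.240 in nuclei, -0.275 to 0.110 in whole cells and -0.0549 to 0.0739 in RiboTag. With the block, 0, 129, 174 and 118 genes were called in nuclear, whole cell, RiboTag labelled male and labelled female libraries, against 1129, 161, 174 and 134. The block fits kept only libraries whose number both cell types share, which left 4, 6, 6 and 4 pairs. Outside RiboTag labelled male this dropped libraries, so their loss and the block cannot be told apart.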
